A study of Mus musculus with 9 samples.

Results

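The genes described here encode the lactate dehydrogenases and the carriers that move lactate and pyruvate across membranes: *Ldha*, *Ldhb*, *Ldhd*, *Slc16a1*, *Slc16a3*, *Slc16a7*, *Bsg*, *Mpc1* and *Mpc2*. They were taken by gene symbol, and all 9 were found among the 24341 genes listed for each sample. The samples come from a study of DNA repair and longevity, in which RNA-seq of mouse embryonic fibroblasts (MEFs) lacking the DNA damage kinase *Atm* or the deacylase *Sirt6* served to look at glycolytic genes. Poly(A) RNA was sequenced from 9 samples, with 3 labelled WT, 3 labelled *Atm-/-* and 3 labelled *Sirt6-/-*. All were of strain C57BL/6 and were grown in DMEM with 10% FBS. The labels name wildtype, *Sirt6-/-*, *P53-/-* and *Atm-/-P53-/-* mice as donors of MEFs, without saying whether the libraries labelled *Atm-/-* also lacked p53 or which p53 status WT had. The study's methods list immortalized *Atm-/-; p53-/-* and *Sirt6-/-* MEFs obtained from separate laboratories, but not which cultures were sequenced. Genotype and line of origin therefore cannot be told apart.

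Lactate dehydrogenase interconverts pyruvate and lactate while exchanging NADH and NAD+. It is a tetramer of A subunits (*Ldha*), which predominate in glycolytic tissue, and B subunits (*Ldhb*), which predominate in heart and other oxidative tissue, while *Ldhd* encodes the mitochondrial enzyme for D-lactate. Lactate crosses the plasma membrane through the monocarboxylate transporters MCT1 (*Slc16a1*), MCT2 (*Slc16a7*) and MCT4 (*Slc16a3*). MCT1 and MCT4 need the glycoprotein basigin (*Bsg*) to reach the surface, and pyruvate enters mitochondria through a carrier made of *Mpc1* and *Mpc2*.

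Each sample had 32187040 to 33837949 reads on genes, so that 3 reads, taken as the limit that a count of 0 allows, equalled 0.0887 to 0.0932 CPM, the read count scaled to the library total. Intervals and limits of this kind cover counting error only. The *Sirt6* transcript was nearly absent from *Sirt6-/-* libraries, where it had 4 to 7 reads, against 402 to 487 in WT. *Atm* had 3768, 3564 and 3443 reads in the libraries labelled *Atm-/-* and 1536, 1617 and 1627 in WT. The targeted transcript was thus not lower there, the altered part of the gene is not given in the labels, and the counts do not check that label. *Trp53*, encoding p53, averaged 14.5 ± 1.28 RPKM in the libraries labelled *Atm-/-*, 111 ± 4.70 in WT and 150 ± 2.04 in *Sirt6-/-* (SD, n = 3 each). RPKM is the read count scaled by transcript length and library size. Among replicates, WT sample 2 stood apart, with a chi-square per gene of 15.6 and 14.4 against the other WT samples, where every other pair of one genotype had at most 6.66. Without it, 9240 genes were called in the libraries labelled *Atm-/-* against WT and 10217 in *Sirt6-/-* against WT, in place of 9080 and 10114, and *Ldhd* in the libraries labelled *Atm-/-* was the member that lost its call. Fibroblast markers were present: 12 of 12 had a mean of at least 1 RPKM in WT and in the libraries labelled *Atm-/-*, and 11 of 12 in *Sirt6-/-*, where *Thy1* averaged 0.271 RPKM. Their summed RPKM was 6080 to 6558 in WT, 2816 to 2857 in the libraries labelled *Atm-/-* and 4736 to 4806 in *Sirt6-/-*. In bulk RNA, fewer cells of a type and less RNA per cell cannot be told apart.

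*Ldha* and *Ldhb* differed from each other in how far they departed from WT. On the RPKM scale the sum of both genes averaged 475 ± 21.7 in WT, 736 ± 33.0 in the libraries labelled *Atm-/-* and 876 ± 36.4 in *Sirt6-/-* (SD, n = 3 each). *Ldha* held most of that sum in every library, and the *Ldhb* part was smallest in WT and largest in *Sirt6-/-*. Because members of the LDH and MCT families are often discussed together as targets of hypoxia-inducible factors and MYC, the 250 bases before the start site of 4 of them are shown. They come from RefSeq (GRCm38.p6), 5′ to 3′ on the strand of the gene, with ACGTG or its complement CACGT in capitals. ACGTG is a form of the core of the hypoxia response element, the other being GCGTG, which was neither marked nor counted. CACGTG is the E-box of MYC-type factors, which holds an ACGTG on each strand. The windows are *Ldha* at chr7:46845554-46845803 (plus strand), *Ldhb* at chr6:142507958-142508207 (minus), *Slc16a1* at chr3:104638414-104638663 (plus) and *Slc16a3* at chr11:120948817-120949066 (plus).
Ldha: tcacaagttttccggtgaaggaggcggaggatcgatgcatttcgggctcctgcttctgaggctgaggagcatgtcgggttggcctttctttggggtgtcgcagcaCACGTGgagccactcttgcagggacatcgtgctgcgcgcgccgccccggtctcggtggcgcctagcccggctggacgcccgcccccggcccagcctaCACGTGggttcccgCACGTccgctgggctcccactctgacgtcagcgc
Ldhb: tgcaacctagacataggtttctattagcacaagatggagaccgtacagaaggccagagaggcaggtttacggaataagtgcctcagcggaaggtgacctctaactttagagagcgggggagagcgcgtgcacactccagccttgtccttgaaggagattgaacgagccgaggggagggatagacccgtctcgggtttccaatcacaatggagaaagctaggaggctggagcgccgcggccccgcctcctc
Slc16a1: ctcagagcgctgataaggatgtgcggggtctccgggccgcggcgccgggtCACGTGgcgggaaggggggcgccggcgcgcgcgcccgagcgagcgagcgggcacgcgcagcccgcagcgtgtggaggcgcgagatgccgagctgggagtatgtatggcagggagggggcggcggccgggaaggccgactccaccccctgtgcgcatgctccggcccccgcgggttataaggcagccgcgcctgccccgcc
Slc16a3: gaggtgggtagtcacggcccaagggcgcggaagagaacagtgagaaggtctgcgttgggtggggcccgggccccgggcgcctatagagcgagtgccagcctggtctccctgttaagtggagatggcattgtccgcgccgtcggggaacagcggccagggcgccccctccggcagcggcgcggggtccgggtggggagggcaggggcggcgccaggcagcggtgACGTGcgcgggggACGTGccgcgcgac

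The *Ldha* window held ACGTG 5 times counted over both strands, 4 of them within 2 copies of CACGTG. The *Ldhb* window held no ACGTG, though GCGTG occurs in it, as it does in that of *Slc16a1*. The *Ldhb* window had 14 CG pairs, against 25 for *Ldha* and a median of 6 over all promoter windows. *Slc16a1* had 2 ACGTG, both within 1 CACGTG, and *Slc16a3* had 2 outside any CACGTG, starting 27 and 14 bases before the start site. Of 32851 mouse promoter windows of this length, 16.6% held ACGTG and 6.0% held CACGTG. A second start site of *Ldha*, at chr7:46846832-46847081, held no ACGTG, as did the windows of *Mpc1* and *Mpc2*, while that of *Ldhd* held 1 CACGTG. These letters are a description of the windows and were not tested for binding.

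*Ldha*, on chromosome 7 from 46841475 to 46855627 (plus strand, GRCm38), was the most abundant member in all 3 genotypes. It had 453, 495 and 461 RPKM in WT, 682, 728 and 677 in the libraries labelled *Atm-/-* and 653, 710 and 671 in *Sirt6-/-*. Every library of both mutant labels lay above every WT library, and those of the mutant labels overlapped each other. Of all genes ranked by mean RPKM, *Ldha* stood at place 133 in WT, 84 in the libraries labelled *Atm-/-* and 89 in *Sirt6-/-*. In edgeR's quasi-likelihood test, with p adjusted by Benjamini-Hochberg over all genes tested, *Ldha* rose by a log2 fold change of 0.41 (standard error 0.05, adjusted p = 2.0e-06) in the libraries labelled *Atm-/-* against WT. This test scales libraries by TMM, which takes most genes as unchanged, so its fold changes can differ from ratios of RPKM. The rise in *Sirt6-/-* against WT was 0.44 (standard error 0.05, adjusted p = 1.0e-06). Both comparisons share the WT samples. Between the mutant labels no difference in *Ldha* passed the test (log2 fold change of *Atm-/-* over *Sirt6-/-* -0.02, standard error 0.04, adjusted p = 0.583).

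*Ldhb*, on chromosome 6 from 142490249 to 142507957 (minus strand), differed between genotypes by a larger factor than *Ldha*. It had 6.59, 5.52 and 6.35 RPKM in WT, from 291, 239 and 276 reads. The libraries labelled *Atm-/-* had 36.2, 45.6 and 38.2 RPKM, and *Sirt6-/-* had 186, 202 and 206. No libraries of different labels overlapped, and the 3 labels formed a ladder with *Sirt6-/-* at the top. *Ldhb* stood at place 7722 of 24341 genes in WT, 2221 in the libraries labelled *Atm-/-* and 335 in *Sirt6-/-*. By edgeR's quasi-likelihood test its log2 fold change against WT was 2.54 (standard error 0.10, adjusted p = 2.7e-11) in the libraries labelled *Atm-/-*, a 5.80-fold rise. In *Sirt6-/-* it was 4.92 (standard error 0.07, adjusted p = 2.8e-16), a 30.3-fold rise. *Ldhb* was also 5.17-fold lower in the libraries labelled *Atm-/-* than in *Sirt6-/-* (log2 fold change -2.37, standard error 0.07, adjusted p = 6.8e-18).

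Within each library, *Ldhb* made up 1.43%, 1.10% and 1.36% of the summed *Ldha* and *Ldhb* RPKM in WT. It made up 5.04%, 5.89% and 5.34% in the libraries labelled *Atm-/-*, and 22.2%, 22.2% and 23.5% in *Sirt6-/-*. The groups did not overlap, and each gap between them was several times the SD. The means were 1.30% ± 0.174, 5.42% ± 0.430 and 22.6% ± 0.770 (SD, n = 3 each). Expressed the other way, there were 68.7 to 89.7 RPKM of *Ldha* for each RPKM of *Ldhb* in WT libraries, 16.0 to 18.8 in the libraries labelled *Atm-/-* and 3.26 to 3.51 in *Sirt6-/-*. An exact two-sided permutation test gave p = 0.1 for each pair of genotypes, which is the smallest value that 3 against 3 samples allow (0.109 adjusted over the 12 comparisons of this kind). This share describes messenger RNA and not subunits of the enzyme.

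**Figure D1:**
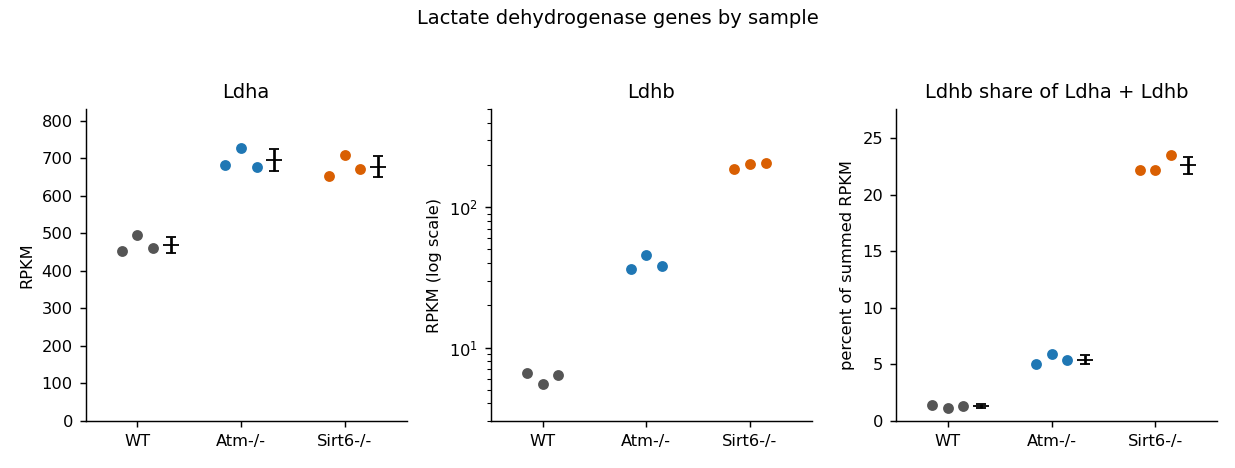
RPKM of *Ldha* (left, linear axis from 0), RPKM of *Ldhb* (middle, log axis) and the *Ldhb* percentage of summed *Ldha* and *Ldhb* RPKM (right) in WT, *Atm-/-* and *Sirt6-/-* libraries. Points are samples, and black marks with bars are the mean ± SD of 3 samples where drawn. *Ldha* of both mutant labels lies at 653 RPKM or more, above every WT sample, while *Ldhb* and its share step up from WT to *Atm-/-* to *Sirt6-/-*.

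Reads of these 2 genes can be shared with near-identical copies. *Ldha* matched 15 processed pseudogenes of GENCODE M21 at 90% identity or more over at least 100 bases, of which 1, *Gm13315*, is listed in the files. *Ldhb* matched 1, *Gm5514* on chromosome 19 from 21937380 to 21938381, at 98.0% identity over 1002 bases, and *Gm5514* is not listed there. How reads that fit several places were counted is not given in the sources used here.

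*Ldhd*, on chromosome 8 from 111623785 to 111630374 (minus strand), was close to the detection limit. It had 8, 2 and 15 reads in WT, 25, 26 and 22 in the libraries labelled *Atm-/-* and 8, 9 and 21 in *Sirt6-/-*. The libraries labelled *Atm-/-* lay above all others, while WT and *Sirt6-/-* overlapped. Against WT, *Ldhd* rose by a log2 fold change of 1.40 in the libraries labelled *Atm-/-* (standard error 0.53, adjusted p = 0.0305 by edgeR's quasi-likelihood test). That call was lost by DESeq2 (adjusted p = 0.0696), with no filter on low counts (adjusted p = 0.0504) and on leaving out WT sample 1 (0.0785), WT sample 2 (0.123) or any of the 3 libraries labelled *Atm-/-* (0.0571 to 0.0768). The log2 fold change was 1.41 by DESeq2, 1.40 with no filter, 0.94 without WT sample 2 and 2.12 without WT sample 3. *Ldhd* had too few reads to be tested in *Sirt6-/-* against WT, and it passed the filter on low counts only through the libraries labelled *Atm-/-*. *Glo1*, the glyoxalase that acts on methylglyoxal upstream of D-lactate, averaged 337 ± 28.2 RPKM in WT. *Glo1* fell in the libraries labelled *Atm-/-* to 143 ± 3.50 RPKM (log2 fold change -1.40, standard error 0.06). In *Sirt6-/-* it fell less, to 296 ± 13.7 RPKM (log2 fold change -0.28, standard error 0.06, adjusted p = 0.000766 by edgeR's quasi-likelihood test).

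Of the plasma membrane lactate carriers, *Slc16a1* carried most of the signal, and *Slc16a3* and *Slc16a7* were the carriers that differed by the largest factor between genotypes. *Slc16a1*, on chromosome 3 from 104638668 to 104658462 (plus strand), had 33.4, 33.1 and 32.2 RPKM in WT, 35.4, 37.4 and 35.0 in the libraries labelled *Atm-/-* and 22.6, 24.3 and 21.7 in *Sirt6-/-*. *Sirt6-/-* lay below all other libraries. By edgeR's quasi-likelihood test *Slc16a1* fell by 0.61 on the log2 scale in *Sirt6-/-* against WT (standard error 0.05, adjusted p = 5.1e-08). The libraries labelled *Atm-/-* exceeded *Sirt6-/-* by 0.59 (standard error 0.05, adjusted p = 4.9e-10). Against WT the log2 fold change of *Slc16a1* was -0.03 in the libraries labelled *Atm-/-* (standard error 0.05, adjusted p = 0.530) with TMM, although each of them was above WT in RPKM. Scaled by library totals, the same test gave 0.13 (adjusted p = 0.0204), so the direction of this small difference depends on the scaling.

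*Slc16a3*, on chromosome 11 from 120948480 to 120960868 (plus strand), encodes MCT4, the carrier known for lactate export from glycolytic cells. It had 29, 34 and 32 reads in WT, 477, 466 and 414 in the libraries labelled *Atm-/-* and 74, 154 and 143 in *Sirt6-/-*. These were 0.343, 0.410 and 0.385 RPKM in WT, 5.80, 5.61 and 5.14 in the libraries labelled *Atm-/-* and 0.917, 1.91 and 1.71 in *Sirt6-/-*. The 3 labels did not overlap, and the order differed from that of *Ldhb*: the libraries labelled *Atm-/-* were highest. *Sirt6-/-* sample 1 stood apart, below the other *Sirt6-/-* samples and above every WT library. By edgeR's quasi-likelihood test the log2 fold change in the libraries labelled *Atm-/-* against WT was 3.69 (standard error 0.16, adjusted p = 5.9e-11), a 12.9-fold rise from a low level. In *Sirt6-/-* against WT it was 1.91 (standard error 0.30, adjusted p = 4.7e-05), and it ranged from 1.71 to 2.17 over the fits that each omit 1 sample. The libraries labelled *Atm-/-* exceeded *Sirt6-/-* by 1.80 (standard error 0.18, adjusted p = 1.2e-08).

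*Slc16a7*, on chromosome 10 from 125219270 to 125389465 (minus strand), encodes the high-affinity carrier MCT2. It had no read in any WT library, 0, 2 and 0 reads in the libraries labelled *Atm-/-* and 18, 17 and 14 in *Sirt6-/-*. Every *Sirt6-/-* library lay above every other library. The *Sirt6-/-* mean of 0.207 RPKM was at least 5.54-fold higher than the WT limit of 0.0373 RPKM, set at 3 reads per library. *Slc16a7* passed the filter on low counts only through its reads in *Sirt6-/-*, so its tests give no support beyond the counts themselves. In edgeR's quasi-likelihood test the adjusted p was 1.0e-04 for *Sirt6-/-* against WT and 8.9e-05 for the libraries labelled *Atm-/-* against *Sirt6-/-*. The fitted fold depends on the prior count. In the libraries labelled *Atm-/-* against WT, *Slc16a7* had too few reads to be tested. A *Slc16a7* transcript of 10981 bases matches 69 other genes at 90% identity or more, over at most 126 bases each, and 57 of them are listed in the files. The length listed for *Slc16a7* is 2419 bases. Whether the matches lie within it was not tested, so the few reads of *Slc16a7* remain uncertain.

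The 3 carriers together averaged 33.3 ± 0.606 RPKM in WT, 41.5 ± 1.43 in the libraries labelled *Atm-/-* and 24.6 ± 1.61 in *Sirt6-/-* (SD, n = 3 each). *Slc16a3* made up 1.02%, 1.23% and 1.18% of that sum in WT, 14.1%, 13.0% and 12.8% in the libraries labelled *Atm-/-* and 3.86%, 7.24% and 7.28% in *Sirt6-/-*. The groups did not overlap, with a mean of 1.14% ± 0.109 in WT, 13.3% ± 0.680 in the libraries labelled *Atm-/-* and 6.13% ± 1.96 in *Sirt6-/-* (SD, n = 3 each). Without division by transcript length, the mean difference in this share from WT was 7.30 in place of 12.2 percentage points in the libraries labelled *Atm-/-* and 2.92 in place of 4.98 in *Sirt6-/-*. Between the mutant labels it was 4.38 in place of 7.17. Taken this way the shares themselves were lower, at 0.576% to 0.693% in WT, 7.63% to 8.44% in the libraries labelled *Atm-/-* and 2.22% to 4.24% in *Sirt6-/-*. *Slc16a1* thus remained the main carrier transcript in all 9 libraries. For each pair the exact two-sided permutation test gave p = 0.1, the smallest value possible.

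*Bsg*, on chromosome 10 from 79704491 to 79711969 (plus strand), was far more abundant than the carriers it accompanies. It had 233, 217 and 220 RPKM in WT, 295, 310 and 316 in the libraries labelled *Atm-/-* and 285, 307 and 308 in *Sirt6-/-*. As with *Ldha*, both mutant labels lay above WT and overlapped each other. *Bsg* rose by 0.29 on the log2 scale in the libraries labelled *Atm-/-* against WT (standard error 0.05, adjusted p = 4.5e-05 by edgeR's quasi-likelihood test). It rose by 0.34 in *Sirt6-/-* (standard error 0.05, adjusted p = 1.7e-05), and between the mutant labels the log2 fold change was -0.03 (standard error 0.04, adjusted p = 0.510). For each RPKM of summed carriers there were 6.72 ± 0.228 RPKM of *Bsg* in WT, 7.40 ± 0.393 in the libraries labelled *Atm-/-* and 12.2 ± 0.748 in *Sirt6-/-* (SD, n = 3 each). The ratio did not overlap between any pair of genotypes (exact permutation p = 0.1, the smallest possible), and the high ratio in *Sirt6-/-* accompanied its lower *Slc16a1*. Taken from reads without division by length, the ratio itself was lower, at 2.57 to 2.75 in WT and 4.77 to 5.36 in *Sirt6-/-*. The excess of *Sirt6-/-* over WT was then 2.32 in place of 5.52.

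**Figure D2:**
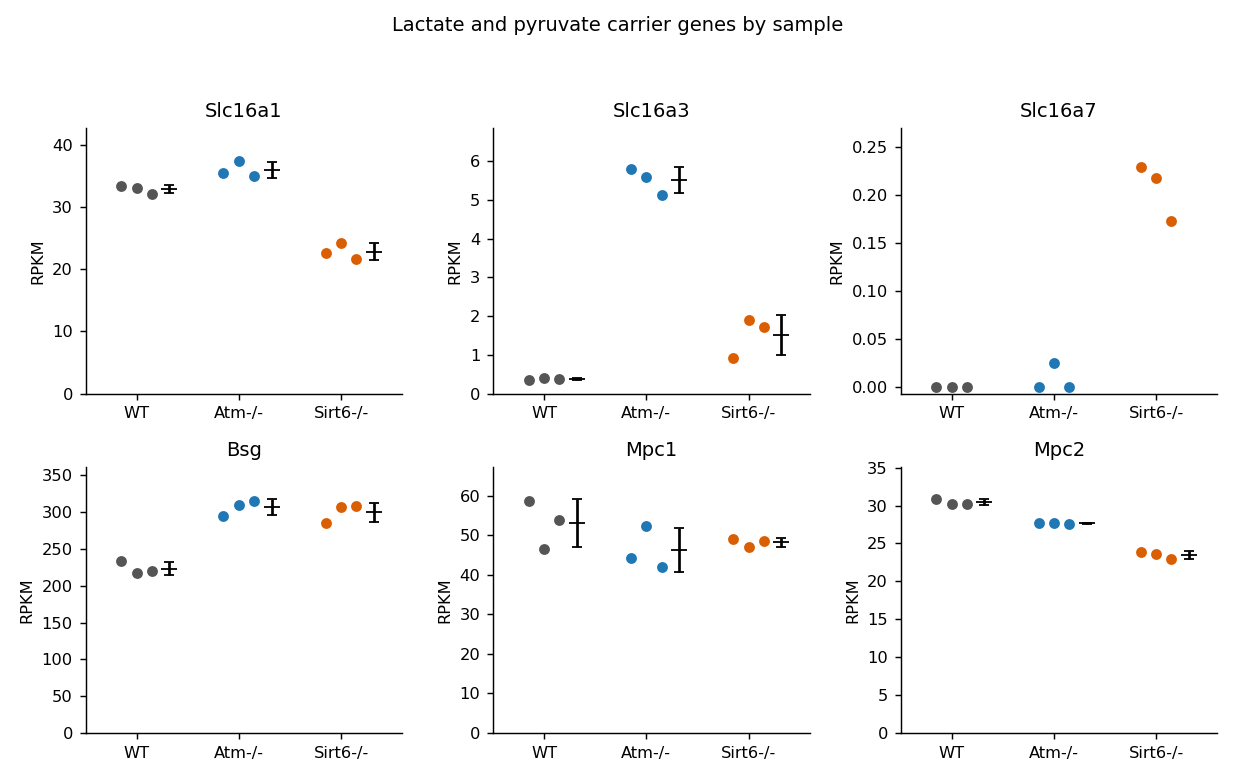
RPKM of the 6 carrier genes in WT, *Atm-/-* and *Sirt6-/-* libraries, each panel on its own linear axis. Points are samples, and black marks with bars are the mean ± SD of 3 samples (none drawn for *Slc16a7*, which had 0 reads in WT). *Slc16a1* is lowest in *Sirt6-/-*, *Slc16a3* highest in *Atm-/-*, *Slc16a7* detected mainly in *Sirt6-/-*, and *Bsg* higher in both than in WT.

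The mitochondrial pyruvate carrier genes differed in the other direction and by small amounts. *Mpc1*, on chromosome 17 from 8282904 to 8297661 (plus strand), had 58.6, 46.6 and 53.8 RPKM in WT, 44.3, 52.4 and 41.9 in the libraries labelled *Atm-/-* and 49.1, 47.0 and 48.6 in *Sirt6-/-*. All 3 genotypes overlapped. In edgeR's quasi-likelihood test *Mpc1* fell by 0.36 on the log2 scale in the libraries labelled *Atm-/-* against WT (standard error 0.09, adjusted p = 0.00342) and by 0.22 in *Sirt6-/-* (standard error 0.08, adjusted p = 0.0179). Both calls were lost with library totals (adjusted p = 0.0763 and 0.134), and the *Sirt6-/-* call also on leaving out WT sample 1 (0.0811) or *Sirt6-/-* sample 2 (0.0651). *Mpc1* is also uncertain because it matches 3 pseudogenes and shares 107 bases with the transcript *4930506C21Rik*. *Mpc2* likewise matches 1 pseudogene, *Gm31931*, at 91.4% identity over 221 bases.

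*Mpc2*, on chromosome 1 from 165460637 to 165481214 (plus strand), varied little among replicates. It had 30.9, 30.2 and 30.2 RPKM in WT, 27.8, 27.6 and 27.6 in the libraries labelled *Atm-/-* and 23.9, 23.6 and 22.9 in *Sirt6-/-*. The 3 labels did not overlap, and *Sirt6-/-* was lowest. Against WT it fell by 0.46 on the log2 scale in *Sirt6-/-* (standard error 0.08, adjusted p = 6.0e-05 by edgeR's quasi-likelihood test). It fell by 0.30 in the libraries labelled *Atm-/-* (standard error 0.07, adjusted p = 0.00232), a call lost with library totals (log2 fold change -0.14, adjusted p = 0.113). Between the mutant labels *Mpc2* was 0.18 higher in the libraries labelled *Atm-/-* (standard error 0.08, adjusted p = 0.0462), and this call was lost on leaving out any 1 of the 6 samples (adjusted p = 0.0716 to 0.103). *Mpc1* made up 63.4% ± 2.47 of the summed *Mpc1* and *Mpc2* RPKM in WT, 62.4% ± 2.72 in the libraries labelled *Atm-/-* and 67.3% ± 0.724 in *Sirt6-/-* (SD, n = 3 each). This share overlapped between WT and the libraries labelled *Atm-/-* (exact permutation p = 0.7) and was higher in every *Sirt6-/-* library than in the others (p = 0.1, the smallest possible in the exact test).

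**Figure D3:**
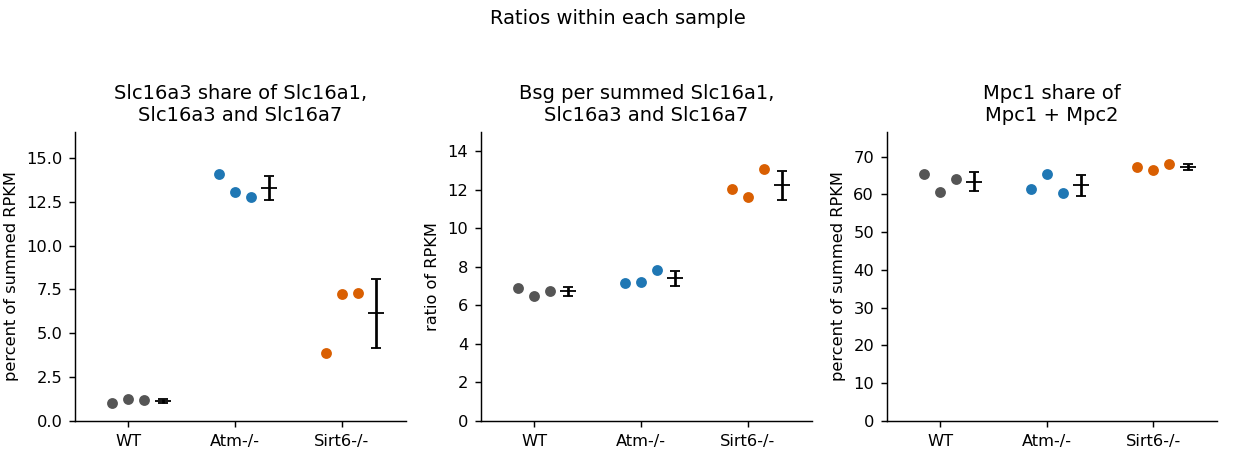
*Slc16a3* as a percentage of summed *Slc16a1*, *Slc16a3* and *Slc16a7* RPKM (left), *Bsg* RPKM per summed RPKM of the same carriers (middle) and *Mpc1* as a percentage of summed *Mpc1* and *Mpc2* RPKM (right), by genotype. Points are samples and black marks with bars are the mean ± SD of 3 samples. The *Slc16a3* share is highest in *Atm-/-* and the *Bsg* ratio in *Sirt6-/-*, while the *Mpc1* share stays between 60.3% and 68.0% in all samples.

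Counted over the members, 8 of 9 were tested in the libraries labelled *Atm-/-* against WT, of which 5 were called higher (*Ldha*, *Ldhb*, *Ldhd*, *Slc16a3* and *Bsg*) and 2 lower (*Mpc1* and *Mpc2*). Scaled by library totals, 6 were higher (the same 5 and *Slc16a1*), and *Mpc1* and *Mpc2* were not called (adjusted p = 0.0763 and 0.113 in edgeR). In that comparison 68.4% of all 13283 genes tested were called, 34.7% higher and 33.6% lower. In *Sirt6-/-* against WT, 8 of 9 were tested, of which 5 were called higher (*Ldha*, *Ldhb*, *Slc16a3*, *Slc16a7* and *Bsg*) and 3 lower (*Slc16a1*, *Mpc1* and *Mpc2*), or 5 and 2 with library totals. There 76.6% of 13206 genes were called, 39.2% higher and 37.4% lower. Between the libraries labelled *Atm-/-* and *Sirt6-/-*, all 9 were tested and 3 were higher in the former (*Slc16a1*, *Slc16a3* and *Mpc2*) and 2 lower (*Ldhb* and *Slc16a7*), where 75.8% of 13460 genes were called, 38.0% higher and 37.8% lower. The 7 of 8, 8 of 8 and 5 of 9 members called are too few genes to set apart from these background shares, and they were not tested against them. *Ldhd* and *Slc16a7* passed the filter on low counts through the group in which they were high. The median log2 fold change of the members tested was 0.35 against 0.02 over all genes for the libraries labelled *Atm-/-*, 0.39 against 0.02 for *Sirt6-/-* (the same with *Slc16a7* at its lower bound), and -0.02 against 0.00 between them. Scaling by library totals moved the median of all genes by 0.16, 0.09 and 0.06. With library totals, 6156 genes were higher and 3326 lower in the libraries labelled *Atm-/-* than in WT, in place of 4611 and 4469 with TMM.

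**Figure D4:**
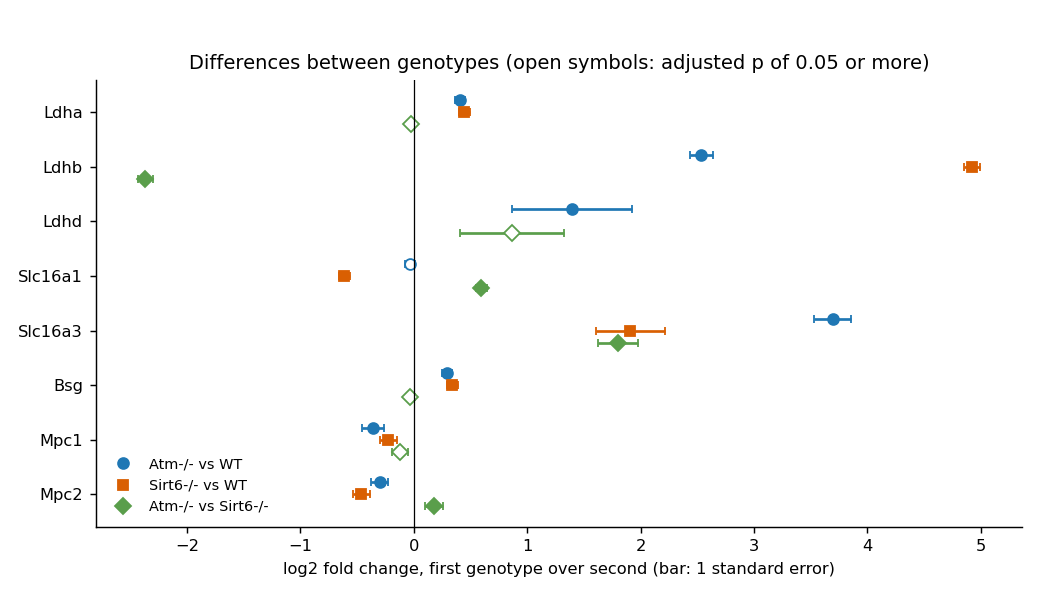
Log2 fold change of 8 members in the 3 comparisons (horizontal axis, first genotype over second, edgeR with TMM), with bars of 1 standard error and open symbols for an adjusted p of 0.05 or more. *Slc16a7* is left out because its fold depends on the prior count. *Ldhb* in *Sirt6-/-* over WT lies farthest to the right at 4.92, *Slc16a3* is the member farthest right in *Atm-/-* over WT at 3.69, and *Mpc1* and *Mpc2* lie left of 0 in both comparisons with WT.

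Other genes of the same pathways were counted from lists by role, to be read against the 68.4% of all genes called in the libraries labelled *Atm-/-* and the 76.6% in *Sirt6-/-*. Among other monocarboxylate carriers, their ancillary proteins and the lactate receptor, 15 of 16 are listed in the files and 10 were tested against WT. Of these, 5 were higher in the libraries labelled *Atm-/-* and 3 lower, while 5 were higher and 2 lower in *Sirt6-/-*. *Slc16a13*, encoding MCT13, had 7, 14 and 4 reads in WT, 407, 397 and 369 in the libraries labelled *Atm-/-* and 802, 944 and 816 in *Sirt6-/-*. Its log2 fold changes against WT were 5.39 (standard error 0.26) and 6.61 (standard error 0.22). *Emb*, encoding embigin, an ancillary protein of monocarboxylate carriers related to basigin, was chosen after its values were seen: it averaged 15.8 ± 0.572 RPKM in WT, 43.7 ± 6.03 in the libraries labelled *Atm-/-* and 79.5 ± 3.08 in *Sirt6-/-* (SD, n = 3 each). Its log2 fold changes against WT were 1.31 (standard error 0.08) and 2.25 (standard error 0.05). Among the LDH-like genes *Ldhc*, *Ldhal6b* and *Uevld*, 2 were tested. Neither was called in the libraries labelled *Atm-/-*, and 1 was called in *Sirt6-/-*, *Uevld*, which rose by 0.63 on the log2 scale (standard error 0.09, adjusted p = 1.94e-05 in edgeR's quasi-likelihood test).

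Upstream of LDH, 25 genes from hexokinase to pyruvate kinase were listed. Of 19 tested, 8 were higher and 7 lower in the libraries labelled *Atm-/-* than in WT, and in *Sirt6-/-* 5 of 18 were higher and 10 lower. *Hk1*, a hexokinase, rose from 11.8 ± 0.479 RPKM in WT to 39.3 ± 1.17 in the libraries labelled *Atm-/-* and 35.4 ± 1.72 in *Sirt6-/-*. *Eno3*, an enolase, fell from 47.9 ± 1.63 RPKM to 38.4 ± 1.20 and 20.9 ± 1.21. *Bpgm*, which makes 2,3-bisphosphoglycerate, rose by 1.73 on the log2 scale in the libraries labelled *Atm-/-* and by 0.37 in *Sirt6-/-*. *Pfkp*, a phosphofructokinase, fell by 1.03 and fell by 0.91. Of 18 genes tested for mitochondrial use of pyruvate and transamination, 3 were higher and 10 lower in the libraries labelled *Atm-/-*, and 6 were higher and 11 lower in *Sirt6-/-*. *Pdp1*, the phosphatase that activates pyruvate dehydrogenase, rose in both, by 1.33 and 3.43. *Gpt2*, the mitochondrial alanine transaminase, fell by 1.06 in the libraries labelled *Atm-/-* and fell by 0.36 in *Sirt6-/-*. *Me2*, a malic enzyme, fell by 0.86 in *Sirt6-/-* and had a log2 fold change of -0.01 in the libraries labelled *Atm-/-* (adjusted p = 0.82, edgeR).

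For the shuttles that reoxidize cytosolic NADH beside LDH, all 11 genes were tested. Against WT 3 were higher and 5 lower in the libraries labelled *Atm-/-*, and in *Sirt6-/-* 3 were higher and 6 lower. *Gpd1l*, glycerol-3-phosphate dehydrogenase 1-like, fell by 0.84 on the log2 scale in the libraries labelled *Atm-/-* and fell by 1.52 in *Sirt6-/-*. *Slc25a11*, the mitochondrial oxoglutarate carrier, rose by 0.32 and 0.23. Of 5 genes tested in the methylglyoxal and D-lactate route, 2 were higher and 2 lower in the libraries labelled *Atm-/-*, and 3 were higher and 2 lower in *Sirt6-/-*. *Glod4* rose by 0.26 in the libraries labelled *Atm-/-* and by 1.01 in *Sirt6-/-*. *Hagh*, the second glyoxalase, fell by 0.31 in *Sirt6-/-* and had a log2 fold change of 0.05 in the libraries labelled *Atm-/-* (adjusted p = 0.683, edgeR). Among 12 regulators named for LDH and MCT genes, 4 were higher and 8 lower in the libraries labelled *Atm-/-*, and 4 of 11 tested were higher and 5 lower in *Sirt6-/-*. The list holds *Atm*, *Sirt6* and *Trp53*, genes that the labels name, so these counts are not independent of genotype. In the libraries labelled *Atm-/-*, *Atm* counted as higher and *Sirt6* and *Trp53* as lower. In *Sirt6-/-*, *Sirt6* itself counted as lower and *Atm* and *Trp53* as higher. *Mycn*, a MYC-family factor, fell from 37.2 ± 5.91 RPKM in WT to 1.31 ± 0.275 in the libraries labelled *Atm-/-* and 1.85 ± 0.509 in *Sirt6-/-*. *Klf4*, a Krüppel-like factor, rose from 8.42 ± 1.11 RPKM in WT to 29.4 ± 1.95 in *Sirt6-/-* and fell to 6.62 ± 0.168 in the libraries labelled *Atm-/-*. *Myc* and *Hif1a*, encoding the MYC factor and a subunit of the hypoxia-inducible factor, were added after their values were seen. *Myc* averaged 56.6 ± 5.68 RPKM in WT, rose to 98.8 ± 3.26 in the libraries labelled *Atm-/-* (log2 fold change 0.64) and had 63.4 ± 0.973 in *Sirt6-/-* (log2 fold change 0.08, adjusted p = 0.262, edgeR). *Hif1a* averaged 65.4 ± 0.836 RPKM in WT, fell to 48.0 ± 2.17 in the libraries labelled *Atm-/-* and rose to 104 ± 1.96 in *Sirt6-/-*. *Epas1* and *Arnt*, which encode other subunits of such factors, were also added after their values were seen. *Epas1* averaged 5.85 ± 0.727 RPKM in WT, 0.352 ± 0.0396 in the libraries labelled *Atm-/-* and 1.93 ± 0.0757 in *Sirt6-/-*. *Arnt* averaged 25.2 ± 2.51, 16.4 ± 0.276 and 28.0 ± 0.169 in the same order.

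The genes whose pattern over the 9 samples was most like that of *Ldhb* were found by the root mean square difference of centred log2 CPM among 9358 genes. They were *Il1rl1* (0.236), *Sod3* (0.248), *Tgfbi* (0.258), *Sept5* (0.272) and *Trps1* (0.275). *Il1rl1* averaged 10.1 RPKM in WT, 89.4 in the libraries labelled *Atm-/-* and 398 in *Sirt6-/-*. Most like *Ldha* were *Stip1* (0.0464), *Tmem14c* (0.0471), *Cttn* (0.0487), *Rnaseh2a* (0.0488) and *Rnf40* (0.0545), and *Stip1* averaged 178, 262 and 247 RPKM in the same order. These 9 samples share 3 genotypes, so likeness follows the group levels.

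Summed levels of some markers of other cell types also differed between the labels. Summed RPKM of 5 epithelial markers was 61.1 to 66.5 in the libraries labelled *Atm-/-*, 11.2 to 13.1 in WT and 11.1 to 12.5 in *Sirt6-/-*. *Krt19* led with a mean of 35.1 RPKM in the libraries labelled *Atm-/-*, where 3 of the 5 averaged 1 RPKM or more and *Epcam* averaged 0.610. For 4 neural markers the sum was 27.5 to 32.5 in the libraries labelled *Atm-/-*, 26.1 to 27.6 in *Sirt6-/-* and 1.47 to 1.60 in WT, with *Gfap* at 0 reads in the libraries labelled *Atm-/-*. Highest of them was *Map2* in the libraries labelled *Atm-/-*, at 15.7 RPKM, and *Tubb3* in *Sirt6-/-*, at 17.0, where *Sox2* averaged 0.0252. For 4 cardiac markers the sum was 14.5 to 20.4 in WT, 1.73 to 2.63 in the libraries labelled *Atm-/-* and 4.32 to 4.45 in *Sirt6-/-*, with *Myh6* at 0 reads throughout. Only *Tnnt2* among them averaged 1 RPKM or more, at 17.2 in WT, 1.97 in the libraries labelled *Atm-/-* and 4.09 in *Sirt6-/-*. Of 4 skeletal muscle markers, *Myog*, *Actn2* and *Ckm* were at 0 reads throughout, and the sum was at most 0.0334. Of 4 endothelial markers the sum was at most 2.43, and of the 4 blood markers listed at most 2.89, with *Hbb-bt* at 0 reads throughout. The part of the epithelial and neural markers, and of *Trp53*, in the levels of the members was not tested.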

How the data were processed

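Poly(A) RNA of 9 MEF samples was sequenced, and genotypes were taken from the labels. The labels do not say that replicates came from separate cultures, so p-values measure the spread between these samples, which may be technical. Read counts per gene and RPKM values were deposited by the authors in 1 file per sample. RPKM divides each count by the transcript length in the file and by 1 read total per sample, and recomputing it from the counts gave the deposited values within a relative difference of 1e-06. The labels' build was mm10, while aligner, counter and strand setting are not given in the sources used here. Positions are from GENCODE M21 (GRCm38), and promoter windows from RefSeq, with a window for 7 of the 9 members (*Bsg* and *Slc16a7* had none).

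Counts were tested with edgeR 4.0.16 (quasi-likelihood, TMM, filterByExpr, prior count 0.125), fitting the 6 samples of each comparison, with Benjamini-Hochberg adjustment over all genes tested and calls at an adjusted p under 0.05. Fold changes are on the scale of counts. The fits were tested on simulated data. Within-sample shares of RPKM were compared by exact two-sided permutation tests (scipy 1.17.1). Replicates of a genotype differed by more than sampling noise (chi-square per gene 5.11 to 15.6, highest for WT sample 2). The precision of low genes is limited by depth, with a limit of 3 reads per library. Pathway genes named were the largest rise and fall of each list among called genes whose mean log2 CPM was 3 or more. A gene that this rule names is not reported here. Members and lists were chosen with earlier results of these data known. Alternatives were DESeq2 1.42.0, edgeR's exact test, other scalings and filters, all 9 samples in 1 fit, a replicate block and leaving out each sample. No sample was left out. The labels give no batch or date.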

Additional observations from a re-analysis of the deposited data

How the results depend on the processing

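Over all settings, 318 log2 fold changes of members kept direction and call, 21 lost the call (all in *Ldhd*, *Mpc1* or *Mpc2*), 3 gained one (*Ldhd* or *Mpc1*, *Atm-/-* over *Sirt6-/-*) and 4 reversed. The calls of *Ldha*, *Ldhb*, *Slc16a3* and *Bsg* against WT, and of *Slc16a1* and *Slc16a7* in *Sirt6-/-* against WT, kept direction and significance under every setting that could fit them. Where low counts were filtered, *Slc16a7* was kept only through its *Sirt6-/-* reads. With library totals, the log2 fold change of *Slc16a1* in the libraries labelled *Atm-/-* against WT turned to 0.13, and those of *Atm-/-* over *Sirt6-/-* turned to 0.035 for *Ldha* and 0.0289 for *Bsg*. That of *Ldha* was -0.0553 to 0.0091 with each sample left out, and turned without *Sirt6-/-* replicate 2. Leaving out samples likewise, the *Mpc1* share differed between the libraries labelled *Atm-/-* and WT by -2.53 to 0.0691 percentage points, and reversed without WT replicate 1 or *Atm-/-* replicate 3. Over the fits that leave out a sample, 6 to 7, 7 to 8 and 4 to 5 members were called in the comparisons of *Atm-/-* with WT, *Sirt6-/-* with WT and *Atm-/-* with *Sirt6-/-*, and edgeR's exact test called 6 in the last.

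From read counts without division by length, *Ldhb* shares differed by 3.61 (*Atm-/-* minus WT), 19.1 (*Sirt6-/-* minus WT) and -15.5 (*Atm-/-* minus *Sirt6-/-*) percentage points, since the listed *Ldha* transcript is longer. The *Slc16a3* shares differed by 7.30, 2.92 and 4.38 points in the same order, and *Bsg* per carrier read by 2.32 (*Sirt6-/-* minus WT) and -1.89 (*Atm-/-* minus *Sirt6-/-*). Deviations of samples with the same replicate number correlated weakly (r -0.0201 to 0.0307). With 3 samples per genotype, this cannot show whether such samples shared a culture or batch. Between the mutant labels, same-number pairs had r of 0.0306, 0.0179 and 0.0307, the highest for each sample in that comparison. In the comparisons with WT, not every sample correlated best with its own number. With the replicate block, 7, 8 and 4 members and 8833, 10041 and 10157 genes were called. The call lost was that of *Mpc2* between the mutant labels (adjusted p = 0.0557, edgeR's quasi-likelihood test). Depth limits *Ldhd* and *Slc16a7*, which have at most 26 reads in any sample.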
